A study of Mus musculus with 8 samples.

Results

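The nuclear genes of the mitochondrial respiratory chain and of ATP synthase were followed over 8 Illumina expression arrays of C57BL/6J mouse bone marrow cells. Genes were taken by platform symbol, as those beginning with Ndufa, Ndufb, Ndufc, Ndufs, Ndufv, Uqcr, Cox4, Cox5, Cox6, Cox7, Cox8 or Atp5, without pseudogenes, and each was read from its probe of highest mean. This gave 82 of 19057 named genes, with 127 probes between them. They comprised 35 genes of complex I, 7 of complex III, 16 of complex IV, 16 of ATP synthase and 8 assembly factors of complex I, so that 74 were subunits by name and 8 were not. Ndufa4 was counted with complex I by its symbol, although the protein is now assigned to complex IV.

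Each of the reprogrammed states, reprogrammed adipocytes, reprogrammed chondrocytes and reprogrammed osteocytes, had 1 array, and its title carried p1. Each differentiated state also had 1 array, titled d7 for adipocytes, d28 for chondrocytes and d21 for osteocytes. Undifferentiated mesenchymal stem cells (MSCs), the marrow stromal cells from which the other cultures derive, had 2 arrays, titled p4 and d0. The labels explain neither the letters d and p nor how cells were reprogrammed, and they do not say whether arrays came from separate cultures or animals. All groups shared the strain and the tissue of origin.

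Complex I passes electrons from NADH to ubiquinone, complex III passes them on to cytochrome c, and complex IV hands them to oxygen. Protons pumped on the way drive ATP synthase, a rotary enzyme with a catalytic F1 head and a membrane-bound Fo part. Most subunits are encoded in the nucleus and imported, while a small core is encoded by mitochondrial DNA. White adipocytes gain mitochondria as they mature, and in muscle, heart and some other tissues complex IV contains tissue-specific isoforms.

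Values are the deposited log2 intensities. Of the 82 genes, 68 reached a log2 value of 6 on all 8 arrays, 5 on 1 to 7 arrays and 9 on none. The 9 were Cox4i2, Cox6b2, Cox7b2, Cox8b, Cox8c, Ndufaf3, Ndufaf6, Ndufs1 and Uqcrfs1, and differences among such dim probes carry little information. Differences between arrays were computed on log2(value + 16), which understates those of dim genes. The size rule asked for a difference of at least 1 on this scale, and in comparisons with MSCs for that distance from each MSC array. With 1 array on a side there is no replicate check and no p-value. The number of arrays limits the precision of every value. In RNA pooled from a whole culture, more cells with a transcript and more transcript per cell cannot be told apart.

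Marker genes were set against the labels first. Adipoq and Cidec, which mark lipid-filled adipocytes, stood at 14.56 and 13.89 on the differentiated adipocyte array and at no more than 10.55 and 7.72 on the other 7. The array labelled differentiated chondrocytes carried the bone-forming markers Sp7, Bglap and Ibsp at 12.64, 10.98 and 11.70 beside Sox9 at 10.73 and Col2a1 at 9.15. The summed level of 7 chondrocyte markers was 11.30 there and 6.92 to 11.04 on the other arrays, with 10.75 on MSC d0. On the array labelled differentiated osteocytes Sp7, Bglap and Ibsp stood at 8.58, 6.46 and 5.30, and Dmp1, Phex and Sost were under 6. These 2 arrays are therefore named by their labels only. The 4 arrays with d titles had 4317 to 5204 probes at 0 and the 4 with p titles 6815 to 7652. The arrays of each title letter are called an array set here, although the labels name no set or batch. By this grouping reprogrammed and differentiated cells lie in different array sets, with 1 MSC array in each. Whether the counts of probes at 0 reflect handling or the cells was not tested. On the reprogrammed chondrocyte array 58.5% of the 8317 genes tested lay between both MSC arrays, against 21.6% to 38.8% on the other 5.

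Most of the respiratory genes stood higher on the differentiated adipocyte array than in MSCs. Of the 82, 72 were higher than the mean of both MSC arrays, with a median log2 difference of 0.65 and quartiles of 0.40 and 0.87. The 9069 genes at a log2 value of 6 on at least 1 array had a median difference of -0.03 in the same comparison, and 4421 of them were higher. At least 1 above both MSC arrays were 12 of the 82 genes, while 9.33% of the 9069 were, and 0 of the 82 were lower by as much, while 10.3% of the 9069 were. At a smaller difference of 0.5, 45 of the 82 were higher and 2 lower, beside 19.0% and 19.9% of the 9069. Against MSC d0 alone, the MSC array that also has a d title, the median was 0.69, and against MSC p4 alone 0.66.

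**Figure D1:**
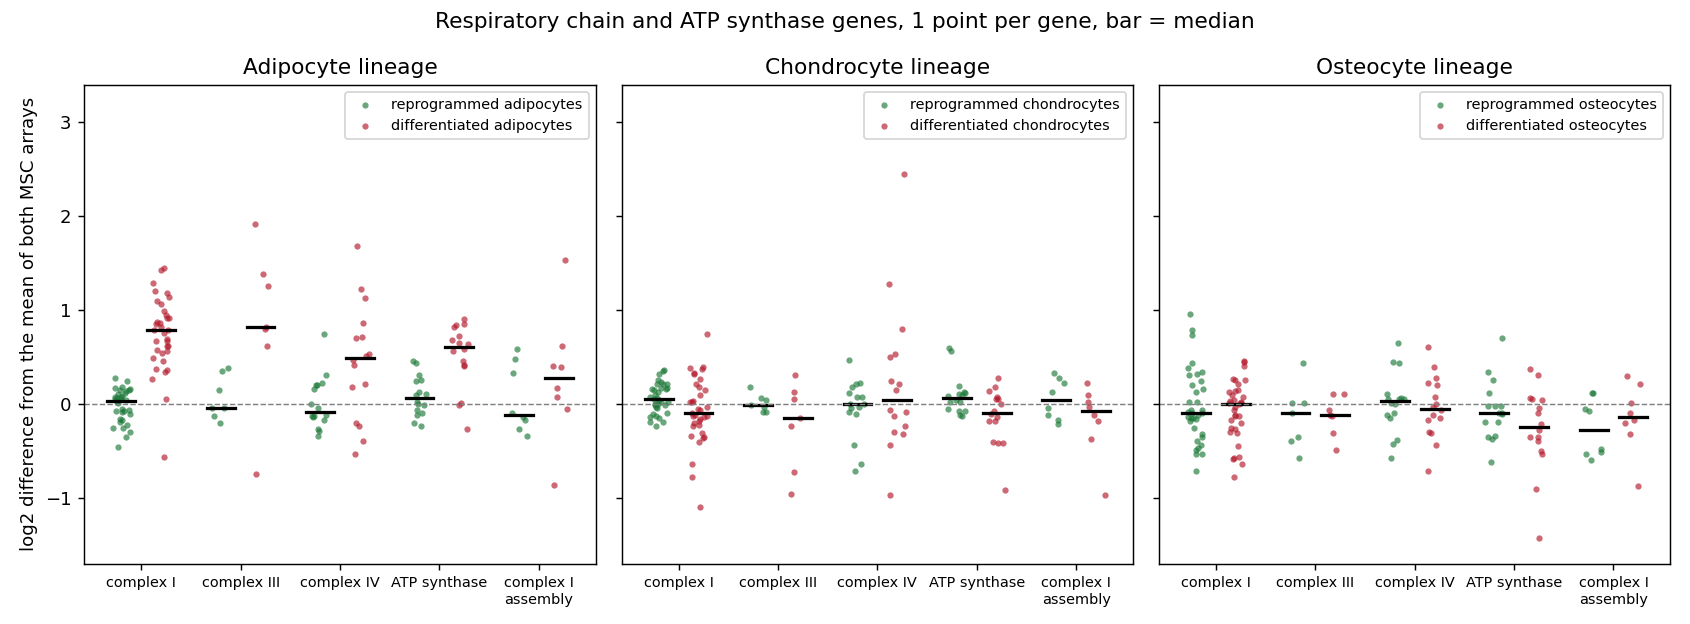
Log2 difference of each of the 82 genes from the mean of both MSC arrays (y axis), by complex (x axis), for the reprogrammed array (green) and the differentiated array (red) of each lineage, with the median as a bar. On differentiated adipocytes the medians lie between 0.28 and 0.82, while the medians of the other 5 arrays lie between -0.27 and 0.07.

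Complex I, the entry point for electrons from NADH, had 34 of its 35 genes higher on differentiated adipocytes, with a median of 0.79, and 7 of them at least 1 above both MSC arrays. The largest difference in the complex was that of Ndufv1, which encodes the FMN-binding subunit that takes electrons from NADH. Ndufv1 had log2 values of 11.68, 11.63 and 11.23 on reprogrammed adipocytes, chondrocytes and osteocytes, 13.21, 11.54 and 11.85 on differentiated adipocytes, chondrocytes and osteocytes, and 11.81 and 11.71 on MSC p4 and MSC d0. The differentiated adipocyte array stood alone, and the other 7 lay within 11.23 to 11.85. Ndufa7, a small accessory subunit, had 11.48, 11.89 and 12.16 on the reprogrammed arrays in the same order, 13.26, 12.15 and 12.10 on the differentiated arrays, and 11.45 and 12.20 on MSC p4 and d0. Its MSC arrays differed by 0.75, so that its difference of 1.43 from their mean rests partly on MSC p4.

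Ndufa10, an accessory subunit of the membrane arm, differed by 1.30. It had 11.22, 11.29 and 11.60 on reprogrammed adipocytes, chondrocytes and osteocytes, 12.59, 11.39 and 11.36 on the differentiated arrays, and 11.27 and 11.31 on the MSC arrays. Ndufab1 encodes the mitochondrial acyl carrier protein, which also serves mitochondrial fatty acid synthesis, and differed by 1.21. Its values were 11.84, 11.64 and 11.12 on the reprogrammed arrays, 12.81, 11.42 and 11.61 on the differentiated arrays, and 11.62 and 11.57 on MSC p4 and d0. For both genes the differentiated adipocyte array was the highest of 8 and all others overlapped. The other 3 complex I genes at least 1 above both MSC arrays were Ndufb10, Ndufa1 and Ndufs7, an iron-sulfur subunit, with differences of 1.18, 1.15 and 1.10. Subunits of the electron path that differed less were Ndufs3 at 0.99, Ndufv2 at 0.62 and Ndufs8 at 0.38. Ndufs1, the largest iron-sulfur subunit of the complex, was below a log2 value of 6 on every array and gives no information.

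Complex III had 6 of 7 genes higher on differentiated adipocytes, with a median of 0.82, and 3 of them passed the size rule. Uqcrc2, a core subunit, was close to constant elsewhere. It had 11.41, 11.22 and 11.27 on reprogrammed adipocytes, chondrocytes and osteocytes, 12.65, 11.39 and 11.36 on differentiated adipocytes, chondrocytes and osteocytes, and 11.24 and 11.27 on MSC p4 and d0. Uqcr10, a small accessory subunit, had 12.86, 12.90 and 12.59 on the reprogrammed arrays, 14.24, 13.30 and 12.87 on the differentiated arrays, and 12.84 and 13.13 on the MSC arrays. Uqcrq, the ubiquinone-binding protein of the complex, showed the largest difference of all 82 genes, 1.92. Its values were 6.96, 7.0 and 6.35 on the reprogrammed arrays, 9.06, 5.87 and 6.95 on the differentiated arrays, and 7.45 and 6.56 on the MSC arrays, so that it was dim on all but 1 of them. The exception in the complex was Uqcrfs1, the Rieske iron-sulfur protein, which was below 6 on every array.

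In complex IV 12 of 16 genes were higher on differentiated adipocytes, with a median of 0.49. Of the 16 genes, 7 reached 6 on at most 1 array, among them Cox4i2, Cox7a1 and Cox8b of the 4 lower ones. Over the other 9, a selection made after the values were seen, 8 were higher and the median was 0.71. Cox4i1, the ubiquitous isoform of subunit 4, had 13.10, 13.29 and 12.83 on reprogrammed adipocytes, chondrocytes and osteocytes, 14.08, 12.89 and 13.29 on the differentiated arrays, and 13.16 and 13.27 on MSC p4 and d0. Cox6b1, which helps hold the enzyme's dimer together, had 11.96, 12.08 and 12.19 on the reprogrammed arrays, 13.35, 12.37 and 12.33 on the differentiated arrays, and 11.89 and 12.36 on the MSC arrays. On both probes the differentiated adipocyte array was the highest of 8. Cox5b and Cox7b differed by 0.72 and 0.71, and Cox5a, a subunit of the matrix side, by 0.51.

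ATP synthase genes differed by less than those of complexes I and III, with 14 of 16 higher on differentiated adipocytes, a median of 0.61, a range of -0.26 to 0.91 and 0 past the size rule. The largest difference was that of Atp5pb, the b subunit of the stator stalk. Atp5o, the protein that joins the stalk to the F1 head, had 13.17, 13.03 and 12.73 on reprogrammed adipocytes, chondrocytes and osteocytes, 13.77, 12.74 and 12.72 on the differentiated arrays, and 12.98 and 12.87 on MSC p4 and d0. Atp5b, the catalytic beta subunit, was near the top of the scale everywhere, at 14.53, 14.55 and 14.18 on the reprogrammed arrays, 14.94, 14.53 and 14.58 on the differentiated arrays, and 14.67 and 14.38 on the MSC arrays. Its difference of 0.42 lay close to the 0.29 between the MSC arrays themselves, and the deposited values end at 15.05.

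**Figure D2:**
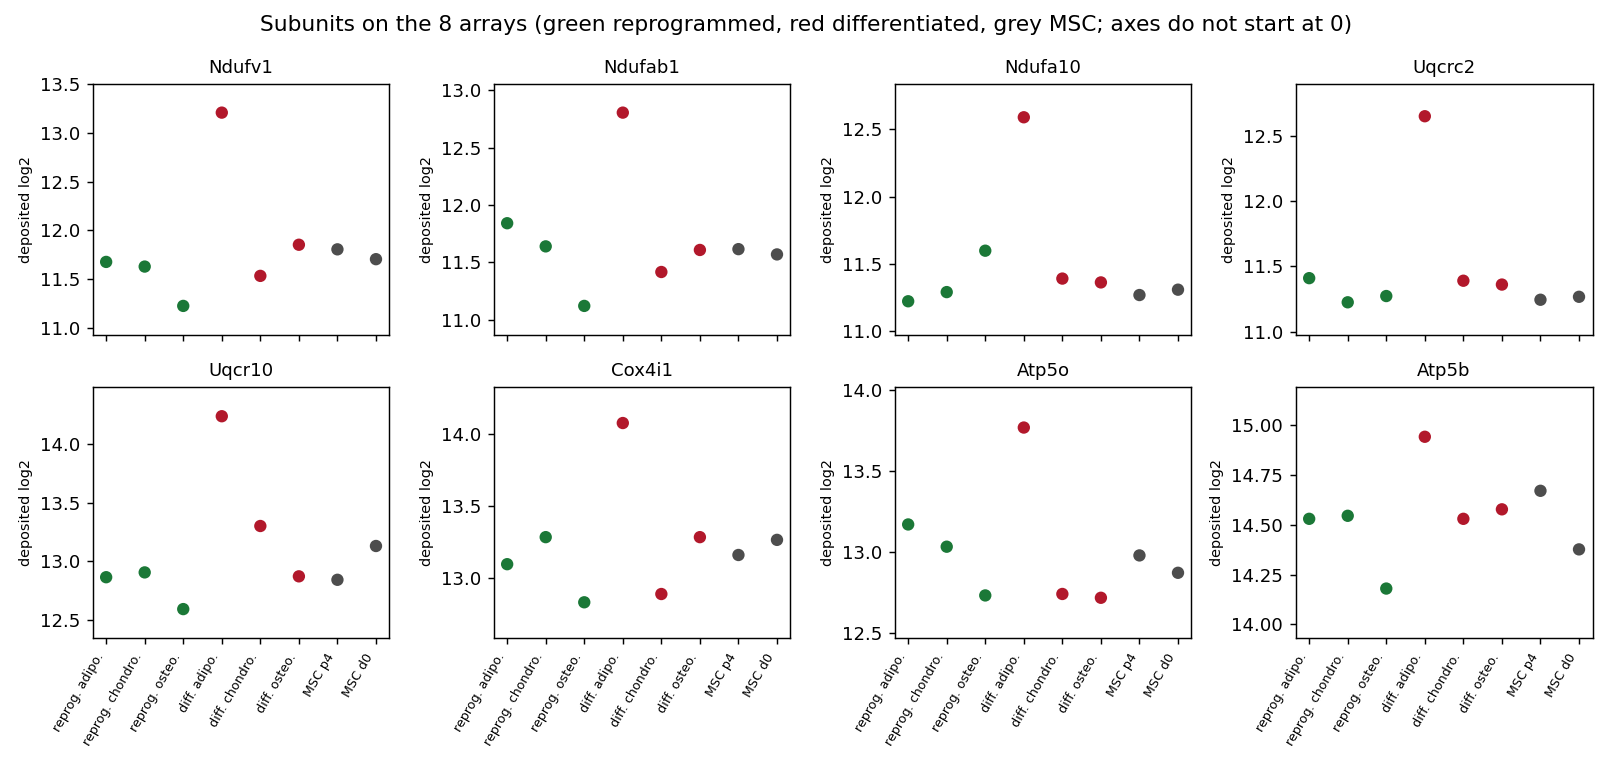
Deposited log2 value (y axis, not from 0) of 8 subunits on each array (x axis), with reprogrammed arrays in green, differentiated arrays in red and MSC arrays in grey. Each subunit has its highest point on differentiated adipocytes, with Ndufv1 at 13.21 and Uqcrc2 at 12.65, and the other 7 points lie below it. For Atp5b the nearest of these, MSC p4 at 14.67, is only 0.27 lower.

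Across all 8 arrays, the differentiated adipocyte array was the highest for 60 of the 82 genes (73.2%), while it was the highest for 24.1% of the 8317 genes at a log2 value of 6 on at least 2 arrays. Among the 1958 of these with a mean log2 value of 10 or more, a level closer to that of many subunits, it was the highest for 22.4%. Every other array was the highest for 1 to 7 of the 82 genes, beside 4.08% to 16.5% of the genes tested. By complex, the differentiated adipocyte array led for 30 of 35 genes of complex I, 6 of 7 of complex III, 13 of 16 of ATP synthase, 7 of 16 of complex IV and 4 of 8 assembly factors. On the deposited log2 values, it exceeded all 7 other arrays by at least 0.5 for 33 of the 82 genes, beside 10.6% of the genes tested. By at least 1 it exceeded them for 5 of the 82, Ndufv1, Ndufa7, Uqcrq, Uqcrc2 and the dim Cox6a2. Beside these stood 398 of the 8317 genes tested, a share near that of the 82.

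**Figure D3:**
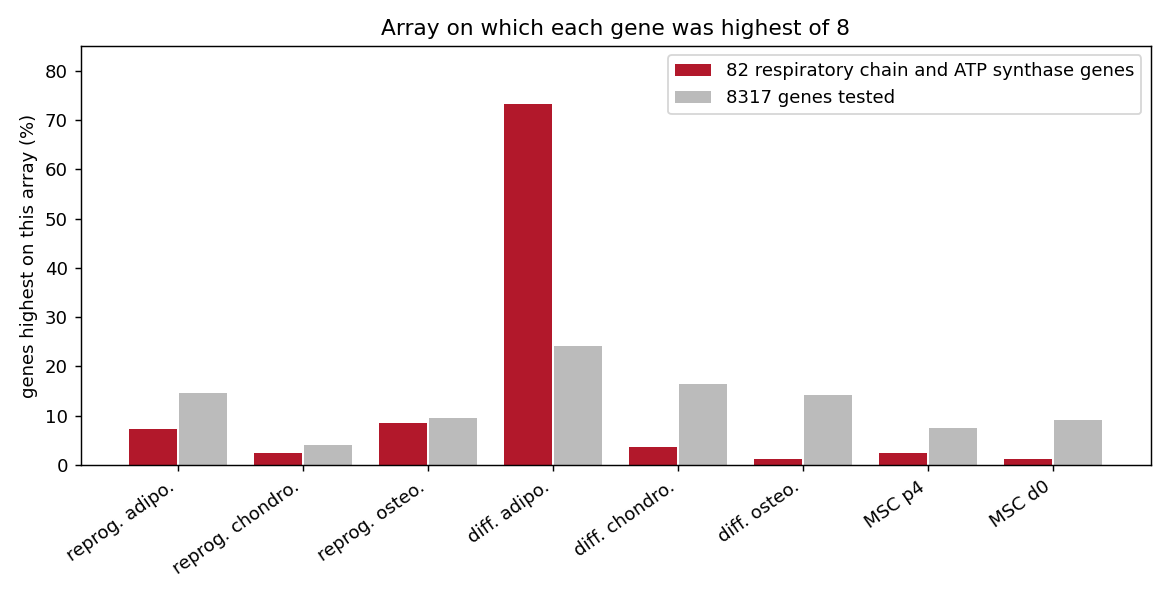
Share of genes (y axis, percent) that had their highest value on each array (x axis), for the 82 respiratory chain and ATP synthase genes (red) and for the 8317 genes tested (grey). Differentiated adipocytes hold 73.2% of the 82 genes and 24.1% of all genes tested.

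Further probes of the same genes also stood highest on that array in most cases. Of 33 genes with several probes, 22 had at least 1 further probe with a mean log2 value of 6 or more, which made 27 probes. All 27 were higher on differentiated adipocytes than in MSCs, with a median difference of 0.88, and 24 had their highest value there. The other 18 further probes were below that mean. Among single genes the probes could differ in size, as for Atp5j, where a further probe gave 0.10 and the one used gave 0.68.

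Differentiated adipocytes were not the highest array for 22 of the 82 genes, among them all 9 that were below 6 on every array. Atp5g2, which encodes a form of the c-ring subunit of ATP synthase, had 10.44, 10.42 and 10.44 on reprogrammed adipocytes, chondrocytes and osteocytes, 10.06, 10.19 and 9.93 on differentiated adipocytes, chondrocytes and osteocytes, and 10.41 and 10.24 on MSC p4 and d0. All 3 differentiated arrays lay below both the reprogrammed and the MSC arrays. Atp5g3, another gene for the same subunit, had 14.26, 14.13 and 13.91 on the reprogrammed arrays, 14.72, 14.32 and 14.31 on the differentiated arrays, and 14.41 and 14.12 on the MSC arrays, with all 3 differentiated arrays above all 3 reprogrammed ones. Among the small ATP synthase subunits, Atp5e and Atp5md differed by 0.01 and less than 0.01 between differentiated adipocytes and the mean of both MSC arrays. For Atp5md the MSC arrays themselves differed by 1.02. Its value of 9.30 on differentiated adipocytes lay between 9.82 on MSC p4 and 8.77 on MSC d0.

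In complex I the exceptions at a measurable level were Ndufb11, Ndufb2, Ndufa11 and Ndufb4. Ndufb11, a membrane-arm subunit encoded on the X chromosome, was dim, with 6.06, 6.09 and 6.91 on reprogrammed adipocytes, chondrocytes and osteocytes, 5.22, 5.44 and 5.22 on the differentiated arrays, and 6.32 and 5.60 on MSC p4 and d0. Its 3 differentiated arrays were all below its 3 reprogrammed arrays. Assembly factors, which help build complex I and are not part of it, had a median of 0.28 on differentiated adipocytes. Ndufaf4 was the exception among them with a difference of 1.54, at 9.65, 9.29 and 9.18 on the reprogrammed arrays, 10.62, 9.29 and 9.36 on the differentiated arrays, and 9.49 and 8.62 on MSC p4 and d0. Its other probe of sufficient level gave 1.45.

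Tissue isoforms of complex IV behaved in several ways. Cox6a1, the widely expressed isoform of subunit 6a, had 13.23, 13.17 and 13.33 on reprogrammed adipocytes, chondrocytes and osteocytes, 14.40, 14.08 and 13.67 on differentiated adipocytes, chondrocytes and osteocytes, and 13.14 and 13.41 on MSC p4 and d0. On this probe all 3 differentiated arrays were above all 5 others. A further probe of Cox6a1, also bright, differed from it on chondrocytes and osteocytes. It had 12.71, 12.71 and 12.78 on the reprogrammed arrays, 13.54, 12.79 and 12.31 on the differentiated arrays, and 12.68 and 12.55 on MSC p4 and d0. On the further probe the chondrocyte pair was close, at 12.71 and 12.79, while the first probe had 13.17 and 14.08. The array labelled differentiated osteocytes was its lowest of 8, and both probes were highest on differentiated adipocytes. The heart and skeletal muscle counterpart of Cox6a1, Cox6a2, had 3.84, 0.00 and 3.52 on the reprogrammed arrays, 6.10, 3.05 and 2.97 on the differentiated arrays, and 2.91 and 3.77 on the MSC arrays, so that only differentiated adipocytes reached the level of 6 used here. Cox7a1, the heart and skeletal muscle isoform of subunit 7a, had 5.49, 5.48 and 5.35 on the reprogrammed arrays, 4.70, 8.31 and 5.05 on the differentiated arrays, and 5.19 and 5.76 on the MSC arrays. It reached 6 on the array labelled differentiated chondrocytes alone, where it was 2.46 above MSCs.

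Cox7a2, the broadly expressed isoform of subunit 7a, had 10.13, 10.10 and 9.48 on reprogrammed adipocytes, chondrocytes and osteocytes, 9.72, 10.08 and 9.19 on the differentiated arrays, and 10.07 and 9.78 on MSC p4 and d0. It was lowest on the array labelled differentiated osteocytes, with a difference of -0.71 from MSCs. Cox7a2l, which encodes a related protein, had 11.04, 11.54 and 11.76 on the reprogrammed arrays, 11.51, 10.35 and 11.29 on the differentiated arrays, and 11.16 and 11.49 on the MSC arrays. Its lowest value was on the array labelled differentiated chondrocytes, the array where Cox7a1 was highest. The isoforms Cox4i2, Cox6b2, Cox7b2, Cox8b and Cox8c stayed below 6 on all 8 arrays. Of these Cox4i2, an isoform best known from lung, came nearest, at 5.79 on the array labelled differentiated chondrocytes, against 3.16 and 4.21 on MSC p4 and d0.

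**Figure D4:**
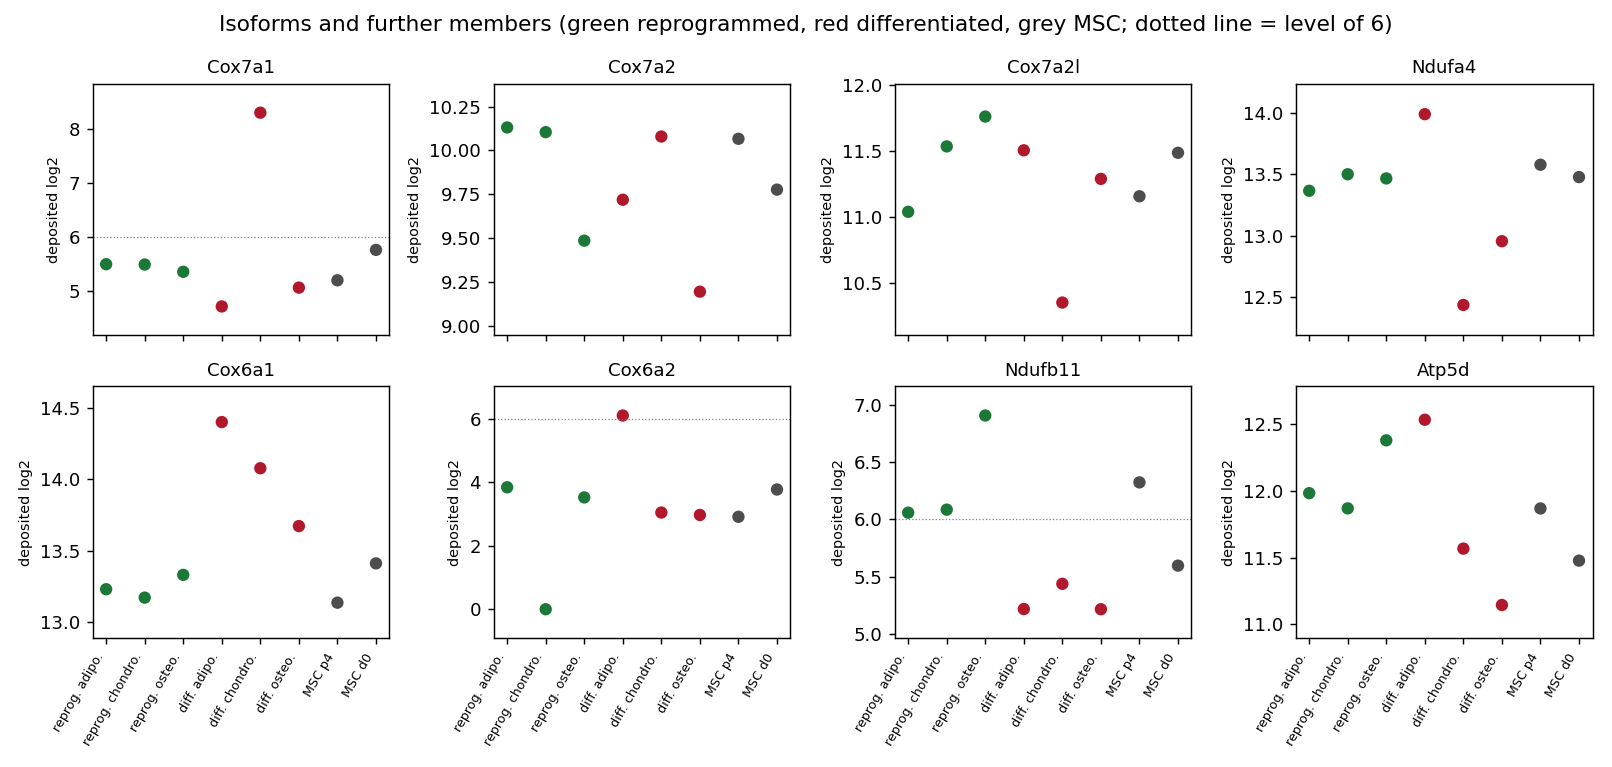
Deposited log2 value (y axis) of 8 genes, isoforms of complex IV and others described in the text, on each array (x axis), with reprogrammed arrays in green, differentiated arrays in red and MSC arrays in grey. Cox7a1 reaches 8.31 on the array labelled differentiated chondrocytes, where Cox7a2l and Ndufa4 have their lowest values, 10.35 and 12.43.

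The start sites of the genes were compared for motifs of 4 factors known to act on nuclear genes of mitochondria. RefSeq (GRCm38.p6) windows of 300 bases, 250 before and 50 after the start, were matched for 69 of the 82 genes, and 13 had no entry and were not analysed here. The palindromic NRF1 motif, shown in capitals in the Atp5k sequence, with any base at its sixth place, was found on either strand in 16 of 69 windows (23.2%), beside 12.8% of the 6793 tested genes with a window and 5.19% of all 27025. The GABPA and ETS motif CCGGAAG was in 16 of 69 (23.2%), beside 22.1% of tested genes and 9.93% of all genes. The YY1 motif AAGATGGCG was in 8 of 69 (11.6%), beside 3.93% and 1.64%, and the ERR-alpha motif TGACCTT was in 6 of 69 (8.70%), beside 3.46% and 5.38%. At least 1 of the 4 was present in 35 of the 69 (50.7%), beside 36.3% of tested genes and 19.9% of all genes. These are letter matches and were not tested as binding sites.

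The 250 bases before the start are shown for the gene of each complex with the largest difference on differentiated adipocytes among those with a motif there, and for Cox7a1, which went another way. They are 5′ to 3′ on the gene's strand, with capitals marking the motif, CCGGAAG in Ndufs3 and Uqcr11, its reverse complement in Cox6b1 and the NRF1 motif in Atp5k.
Ndufs3, chr2:90904722-90904971, minus strand: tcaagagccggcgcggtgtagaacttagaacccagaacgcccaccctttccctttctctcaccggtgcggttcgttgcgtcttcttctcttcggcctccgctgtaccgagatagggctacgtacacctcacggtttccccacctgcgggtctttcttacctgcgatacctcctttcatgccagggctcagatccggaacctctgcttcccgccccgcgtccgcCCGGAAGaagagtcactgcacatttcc
Uqcr11, chr10:80406822-80407071, minus strand: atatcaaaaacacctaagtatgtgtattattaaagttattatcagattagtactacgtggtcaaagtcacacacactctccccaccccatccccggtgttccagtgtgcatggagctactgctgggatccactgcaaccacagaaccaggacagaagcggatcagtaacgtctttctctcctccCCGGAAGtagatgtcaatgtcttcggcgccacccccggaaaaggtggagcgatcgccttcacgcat
Cox6b1, chr7:30626115-30626364, minus strand: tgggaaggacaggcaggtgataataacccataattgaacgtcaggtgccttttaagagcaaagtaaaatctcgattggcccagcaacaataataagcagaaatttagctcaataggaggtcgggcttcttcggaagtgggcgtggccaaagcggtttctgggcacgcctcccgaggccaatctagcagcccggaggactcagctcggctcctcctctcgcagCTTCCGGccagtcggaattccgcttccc
Atp5k, chr5:108434400-108434649, minus strand: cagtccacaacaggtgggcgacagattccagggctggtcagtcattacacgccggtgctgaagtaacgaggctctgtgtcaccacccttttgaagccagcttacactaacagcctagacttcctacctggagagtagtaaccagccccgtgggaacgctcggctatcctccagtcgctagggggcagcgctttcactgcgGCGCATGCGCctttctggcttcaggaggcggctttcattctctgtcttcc
Cox7a1, chr7:30183921-30184170, plus strand: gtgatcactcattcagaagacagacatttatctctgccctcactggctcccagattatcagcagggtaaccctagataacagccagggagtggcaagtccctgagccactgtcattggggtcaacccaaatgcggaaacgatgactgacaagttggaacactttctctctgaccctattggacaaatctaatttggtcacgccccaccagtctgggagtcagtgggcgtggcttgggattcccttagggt
The motif began at position -27 from the start site in Ndufs3, -66 in Uqcr11, -28 in Cox6b1 and -50 in Atp5k. Cox7a1 had none of the 4 motifs in its window.

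The comparison of reprogrammed with differentiated adipocytes asks how far the adipocyte pattern is present after reprogramming. Respiratory genes were lower on the reprogrammed adipocyte array in 68 of 82 cases, with a median log2 difference of -0.65, while the 9069 genes had a median of -0.01. Lower by at least 1 were 16 of the 82, beside 16.7% of the 9069, and higher by at least 1 was 1, the dim Uqcrfs1, beside 16.5%. The share lower by 1 thus lay near that of all genes, and the share higher lay below it. At 0.5, 51 were lower and 4 higher, beside 30.6% and 29.5%. The 16 comprised 9 genes of complex I, among them Ndufa7 at -1.78 and Ndufv1 at -1.52, 4 of complex III, among them Uqcrq at -1.96, and Cox6a1, Cox6a2 and Cox6b1 of complex IV. Medians were -0.73 in complex I, -1.03 in complex III, -0.36 in complex IV, -0.53 in ATP synthase and -0.31 in the assembly factors.

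Reprogrammed adipocytes lay near MSCs, with a median of 0.01 over the 82 genes and a range of -0.45 to 0.75. Past the size rule were 0 of the 82 in either direction, beside 0.143% of the 9069 higher and 0.871% lower. At 0.5, 1 was higher and 0 lower, beside 1.96% and 5.02%. The values of 25, 37 and 24 of the 82 genes lay between both MSC arrays on reprogrammed adipocytes, chondrocytes and osteocytes, beside 33.5%, 58.5% and 38.8% of the genes tested. On the differentiated arrays in the same order these were 6, 22 and 29 genes, beside 21.6%, 29.1% and 29.5%. Differentiated adipocytes had the fewest of the 6 arrays. This comparison shares the adipocyte and MSC arrays with those above, so the 3 are not independent.

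The array labelled differentiated chondrocytes differed little from MSCs, with a median of -0.08 over the 82 genes, 35 of them higher and 47 lower. Past the size rule were 2 higher, Cox7a1 and the dim Cox4i2, beside 6.87% of the 9069, and 1 lower, Ndufa4, beside 3.09%. At 0.5, 4 were higher and 8 lower, beside 15.1% and 10.7%. Ndufa4 had 13.37, 13.50 and 13.47 on reprogrammed adipocytes, chondrocytes and osteocytes, 13.99, 12.43 and 12.95 on differentiated adipocytes, chondrocytes and osteocytes, and 13.58 and 13.48 on MSC p4 and d0. Its range over the 3 reprogrammed arrays was narrow, and the differentiated arrays lay on both sides of it. On the array where Cox7a1 was high, the macrophage markers Laptm5 and Lyz2 stood at 8.14 and 8.0, against 4.10 and 6.76 at most on the other 7, and 3 of 6 macrophage markers reached 6. Csf1r and Ptprc were at 5.86 and 3.39 there. The summed level of the 6 was 9.69 there and 7.73 to 8.65 on the others, and the part of such cells in the Cox7a1 value was not tested.

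Reprogrammed chondrocytes were set against the array labelled differentiated chondrocytes with a median of 0.08. Higher by at least 1 were 5 of the 82, beside 8.50% of the 9069, namely Atp5k, the dim Ndufaf3, Cox7a2l, Ndufa4 and Atp5md. Lower by as much were 3, beside 10.9%, namely Cox7a1 at -2.45 and the dim Cox6b2 and Cox4i2. At 0.5, 11 were higher and 7 lower, beside 21.6% and 24.7%. Against MSCs the reprogrammed chondrocyte array had a median of 0.05 and 0 genes past the size rule, beside 0.143% higher and 0.0110% lower, and 0 differed by 0.5, beside 0.827% and 0.584%.

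On the array labelled differentiated osteocytes the median against MSCs was -0.08, with 34 genes higher and 47 lower. Higher by at least 1 were 0, beside 4.53% of the 9069, and lower by as much was 1, Atp5k, beside 2.47%. At 0.5, 1 was higher and 5 lower, beside 10.7% and 9.21%. ATP synthase was the group with the lowest median there, -0.24, with 11 of 16 genes lower. Atp5k, the dim e subunit of the Fo part, had 7.22, 7.34 and 5.95 on reprogrammed adipocytes, chondrocytes and osteocytes, 7.61, 5.57 and 4.83 on the differentiated arrays, and 7.13 and 6.24 on MSC p4 and d0. Atp5md, another small membrane subunit, had 9.75, 9.92 and 9.28 on the reprogrammed arrays, 9.30, 8.88 and 8.36 on the differentiated arrays, and 9.82 and 8.77 on the MSC arrays. For 8 of the 16 ATP synthase genes, and 20 of the 82, this was the lowest of the 8 arrays, beside 11.4% of the genes tested.

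Reprogrammed osteocytes had a median of 0.01 against the array labelled differentiated osteocytes. Higher by at least 1 were 2 of the 82, Ndufb11 and Atp5d, beside 7.93% of the 9069, and lower by as much was 1, Ndufb4, beside 11.0%. At 0.5, 14 were higher and 8 lower, beside 20.4% and 27.7%. Atp5d, the delta subunit of the F1 stalk, had 11.98, 11.87 and 12.38 on reprogrammed adipocytes, chondrocytes and osteocytes, 12.54, 11.57 and 11.14 on the differentiated arrays, and 11.87 and 11.48 on MSC p4 and d0. Ndufb4 had 9.46, 9.60 and 8.80 on the reprogrammed arrays, 9.90, 9.30 and 10.01 on the differentiated arrays, and 9.53 and 9.55 on the MSC arrays, so that the order of the 2 osteocyte arrays was opposite to that of Atp5d. Against MSCs, reprogrammed osteocytes had a median of -0.09 and 0 genes past the size rule, beside 0.827% higher and 0.441% lower. At 0.5, 5 were higher and 1 lower, beside 5.06% and 6.19%. All 9069 genes also had a median of -0.09 in that comparison.

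The 2 MSC arrays differed from each other by a median of 0.02 over the 82 genes, p4 minus d0. Of these 1, Atp5md, was higher by at least 1 on p4, beside 6.38% of the 9069, and 0 were lower by as much, beside 8.03%. At 0.5, 10 were higher and 4 lower, beside 18.9% and 21.9%.

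Taking lineages as the replicates of a state, limma's test over the 8317 genes, with Benjamini-Hochberg adjustment, called 0 of the 71 respiratory genes tested in any of the 3 state comparisons. It called 0.649% of genes tested between reprogrammed and differentiated cells, 0.0601% between differentiated cells and MSCs, and 0.00% between reprogrammed cells and MSCs. At an unadjusted p under 0.05 it gave 5, 1 and 0 of the 71, beside 22.6%, 10.4% and 0.325% of the genes tested. The lowest adjusted p was that of Cox6a1. Its difference between reprogrammed and differentiated cells was -0.81 (SE 0.25, adjusted p = 0.122 by limma, lower in 3 of 3 lineages on the probe used). Between differentiated cells and MSCs its difference was 0.78 (SE 0.28, adjusted p = 0.399 by limma). On the further probe described above, the osteocyte pair ran the other way and the chondrocyte pair was close, at 12.71 and 12.79. Ndufb11 differed by 0.83 between reprogrammed and differentiated cells (adjusted p = 0.142 by limma).

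State medians rested on the adipocyte array. Over the 82 genes the median of reprogrammed minus differentiated cells was -0.18, and without the differentiated adipocyte array it was 0.03. For differentiated cells minus MSCs the median was 0.18, and without that array it was -0.08. Reprogrammed cells minus MSCs gave -0.01, and without the reprogrammed chondrocyte array -0.03. The groups did not overlap for 2 genes higher and 11 lower between reprogrammed and differentiated cells, beside 13.7% and 16.2% of the genes tested. For differentiated cells against MSCs these numbers were 9 and 4, beside 11.8% and 12.2%, and for reprogrammed cells against MSCs 5 and 6, beside 4.86% and 8.72%. Counts here are over all 82 genes and include dim ones that are not among the genes tested. These were Cox6b2 among the 11, Cox8b and Uqcrfs1 among the 4, and Cox8c among the 9 and the 5.

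Other genes of the same machinery were read from lists, over every listed gene with a probe. Complex II, which feeds electrons from succinate, had 6 of 6 genes higher on differentiated adipocytes than in MSCs, with a median of 0.81. Electron carriers and their enzymes had 7 of 7 higher, with a median of 0.85, and all 7 were highest on that array. Cycs, which encodes cytochrome c, had 11.72, 11.17 and 10.46 on reprogrammed adipocytes, chondrocytes and osteocytes, 12.97, 10.57 and 10.28 on the differentiated arrays, and 11.38 and 10.14 on MSC p4 and d0. Cyc1, the cytochrome c1 subunit of complex III that the symbol rule does not catch, differed by 1.47, and Coq9, needed for ubiquinone synthesis, by 1.88. Assembly factors of complexes III to V had 17 of 20 genes higher, with a median of 0.55. Atpif1, which encodes the inhibitor of ATP synthase, was among the 3 lower, at -0.94.

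Mitochondrial ribosomal proteins had 67 of 76 genes higher, with a median of 0.50, the import machinery had 19 of 23, with 0.37, and genes of contact sites, prohibitins and fusion had 5 of 8, with 0.57. Transcripts encoded by mitochondrial DNA had 7 of 8 higher, with a median of 0.27. Of these 8 probes 5 had a mean above 13, near the 15.05 at which the deposited values end, so this median is not set against that of the nuclear genes. On the array labelled differentiated chondrocytes 7 of the same 8 were lower, with a median of -0.61. Regulators of mitochondrial biogenesis had 16 of 20 genes higher, with a median of 0.36. Ppargc1b, a coactivator of mitochondrial genes, had 4.26, 3.38 and 3.79 on reprogrammed adipocytes, chondrocytes and osteocytes, 9.13, 5.69 and 4.66 on the differentiated arrays, and 3.49 and 3.30 on the MSC arrays, and it reached 6 on differentiated adipocytes alone. Esrra, which encodes the receptor ERR-alpha, differed by 0.57, Nrf1 by 0.07 and Gabpa by -0.76. Ppargc1a, Ucp1, Cidea and Dio2, used as brown fat markers, were under 6 on all 8 arrays, with Ucp1 at 4.29 on differentiated adipocytes.

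**Figure D5:**
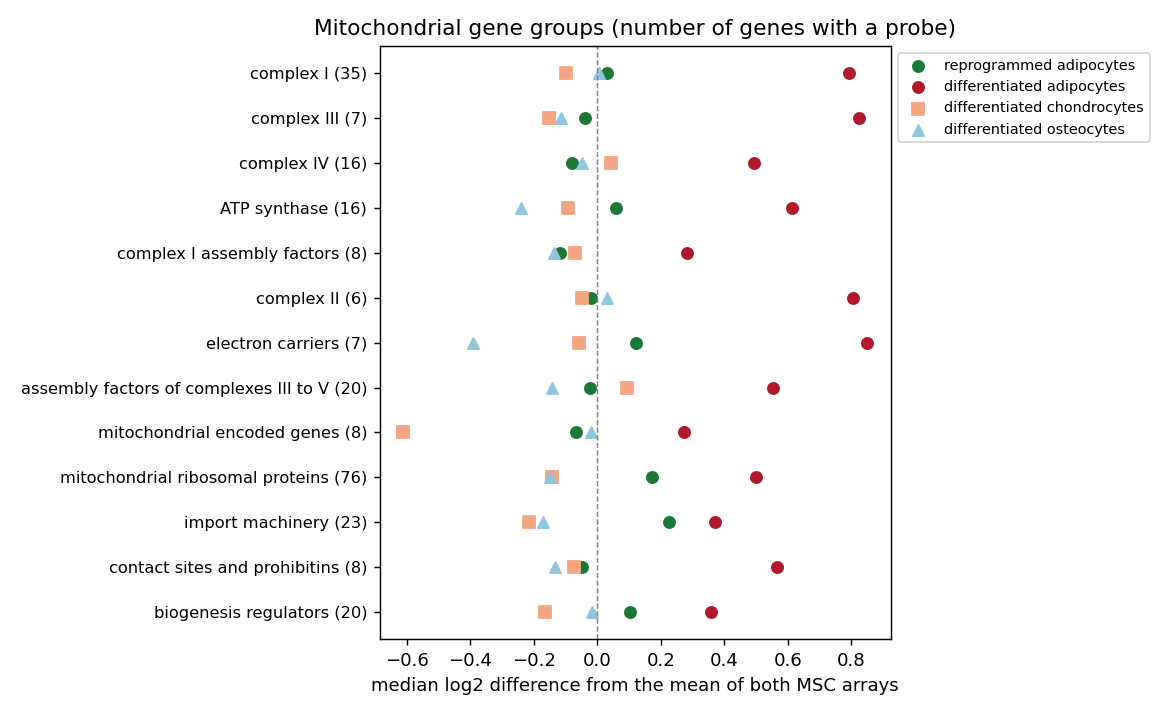
Median log2 difference from the mean of both MSC arrays (x axis) for the respiratory genes and the further mitochondrial lists (y axis) on reprogrammed adipocytes and the 3 differentiated arrays, over all genes with a probe. On differentiated adipocytes the electron carriers lie at 0.85 and the mitochondrial ribosomal proteins at 0.50, and genes encoded by mitochondrial DNA lie at -0.61 on the array labelled differentiated chondrocytes.

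Other features moved with the adipocyte array. The adipocyte markers, 9 of 9, were higher there than in MSCs, with a median difference of 2.43, and the cycling-cell markers, 5 of 5, were lower, with a median difference of -2.77. The summed level of the 5 cycling markers was 10.1 on differentiated adipocytes and 10.9 to 13.2 on the other 7 arrays. The 2 other differentiated arrays had cycling sums of 11.18 and 10.91, against 12.96 and 11.64 on MSC p4 and d0. Their median differences from MSCs over the cycling markers were smaller, -1.02 for chondrocytes and -1.31 for osteocytes. Over the 82 genes their medians were both -0.08. The part of these features in the respiratory gene values was not tested on any array.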

How the data were processed

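Per the labels' protocols, a Qiagen RNeasy kit gave total RNA, and an Ambion MessageAmp kit for Illumina arrays gave cRNA labelled with biotin. The deposited values are on a log2 scale. How the authors corrected and normalized them is not given in the sources used here. Each of the 8 columns had a median of 3.901, a maximum of 15.05 and a floor of 0. A second table held 16 value columns that could not be tied to a sample by name and was not used. The number of arrays limits the precision.

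Probes were named from the platform annotation, in which 34885 had 1 symbol, 18 several and 10378 none, and 34807 were matched by Entrez identifier to RefSeq symbols (GRCm38.p6). The probe of Ndufs5-ps, a pseudogene, was left out. Values x became log2(2^x + 16). State differences were tested with limma 3.58.1 (R 4.3.3; lmFit and eBayes, two-sided, Benjamini-Hochberg at 0.05) on genes at a log2 value of 6 on at least 2 arrays, and the test was tried on simulated data. Lineages were the replicates of a state, so p-values measure the spread between these arrays only, which may be technical. Tables were handled in Python 3.11.15 with pandas 2.3.3. Reprogrammed and differentiated arrays share lineages but no stated culture, so the fit with lineage as a block was an alternative.

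Genes given on every array were the 3 largest differences in each direction of each comparison and the tissue isoforms. From these, examples are printed. Ndufab1, Ndufa10, Uqcrc2, Atp5o, Atp5b and others outside the rule were chosen after their values were seen. The members and lists were chosen with earlier results of these data known.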

Additional observations from a re-analysis of the deposited data

Results flagged for a closer look

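The probe of Ndufs5-ps, a pseudogene of a complex I subunit, was left out of the 82 genes. It had log2 values of 10.63, 10.82 and 11.51 on reprogrammed adipocytes, chondrocytes and osteocytes, 11.97, 11.09 and 10.94 on differentiated adipocytes, chondrocytes and osteocytes, and 10.56 and 11.03 on MSC p4 and d0. It was noted because its value of 11.97 on differentiated adipocytes lay above both MSC arrays in data outside the comparisons. The order, with differentiated adipocytes as the highest array, is that of 60 of the 82 genes. Whether the probe also binds the transcript of Ndufs5 was not tested. Groups of 3 arrays were too small to look for single arrays far from their group.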

How the results depend on the processing

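No respiratory gene passed limma's test under any setting, and no value turned its sign among those past a threshold. Of 134 medians 128 stayed within the spread, among them the state medians that changed sign without the differentiated adipocyte array (-0.08 and 0.03), and of 118 counts 80 stayed within 1.5 times the value reported. Some of the 128 could not move, as with no filter on level or without an array outside the comparison. Most of the 80 counts were 0 and stayed 0, such as the respiratory genes called by limma in every state comparison. They say little about how stable the other counts are. For state medians the spread was the larger standard deviation of array medians within either state. The differentiated adipocyte array itself widens that spread, so staying within it is a weak check. The number of genes called over the whole table did depend on the settings. For differentiated cells minus MSCs it was 5, and 1 with the array set as a block, 2 with no offset, 10 with an offset of 64, 3 with no filter on level, 9 at a level of 7, 2 with the mean over probes, 11 with arrays centred and 0 on the arrays of both states alone. Leaving out each array gave 1 to 57. For reprogrammed minus differentiated cells it was 54, and 0 with the array set as a block, 32 with the mean over probes and 7 with lineage as a replicate block, and leaving out each array gave 2 to 216. The highest of both ranges came without differentiated adipocytes. With lineage as a replicate block the median of the 82 genes is -0.18 by construction, so that setting gives no check of it. The median of reprogrammed cells minus MSCs lay between -0.03 and 0.03 under all settings.

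Medians over the 82 genes that went outside the spread were -0.15 for differentiated chondrocytes against MSC p4 alone, -0.71 for reprogrammed minus differentiated adipocytes at a level of 7 and also at a level of 6 on 2 arrays, a setting added after the data were seen, 0.17 with the mean over probes and 0.13 with arrays centred for reprogrammed minus differentiated osteocytes, and -0.026 with arrays centred for reprogrammed osteocytes minus MSCs. With the size rule at 0.5, counts of genes higher and lower were 45 and 2 for differentiated adipocytes, 4 and 8 for differentiated chondrocytes and 1 and 5 for differentiated osteocytes, all against MSCs. For the reprogrammed arrays they were 4 and 51 against differentiated adipocytes, 11 and 7 against differentiated chondrocytes and 14 and 8 against differentiated osteocytes. Against MSCs they were 1 higher for reprogrammed adipocytes and 5 and 1 for reprogrammed osteocytes, and 10 and 4 for MSC p4 minus d0. By complex, 567 of 670 medians stayed within the spread, a tally with the same limits. Causes of these changes were not tested, beyond the lower threshold and the smaller number of arrays. Genes under a log2 value of 6 on every array, 9 of 82, are limited by signal near background.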

Other observations

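Among genes that the symbol rule does not take in, Ttc19 opposed the order of the respiratory genes on differentiated adipocytes. Ttc19, a factor of complex III, had log2 values of 9.48, 9.39 and 9.02 on reprogrammed adipocytes, chondrocytes and osteocytes, 8.67, 8.94 and 8.28 on differentiated adipocytes, chondrocytes and osteocytes, and 9.55 and 9.43 on MSC p4 and d0, so that all 3 differentiated arrays lay below all others. ND4L, encoded by mitochondrial DNA, had 11.04, 12.06 and 11.55 on the reprogrammed arrays, 13.58, 10.05 and 12.23 on the differentiated arrays, and 11.86 and 12.01 on the MSC arrays. It was highest on differentiated adipocytes, as most respiratory genes were, and lowest on the array labelled differentiated chondrocytes. Both genes were picked with their values in view, and no explanation was tested.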
